A study of Bos taurus with 16 samples.

Results

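The solute carriers (SLC) are the large superfamily of membrane proteins that move sugars, amino acids, ions, metals, nucleotides and metabolites across the plasma membrane and the membranes of organelles. They were examined in the bovine corpus luteum, which develops from the ovulated follicle and secretes progesterone. A spot belonged to the set when the gene name on the array, or else the human gene named in its description, began with SLC and a number. This gave 97 genes on 98 of the 15208 non-control spots, 72 of them from the gene name and 25 from the description. Of the 97 genes, 77 were well above background, by the scanner software's own test, on at least 3 of the 4 arrays of a group and were tested, and 20 were not.

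RNA came from the corpus luteum of 16 Japanese Black cows, 1 array per animal, in 4 groups of 4. The control group held non-pregnant cows on days 10 to 12 of the estrous cycle, here called cyclic, and the other groups held pregnant cows on days 20 to 25, days 40 to 45 and days 150 to 160 of pregnancy, counted from insemination as day 1. No treatment or genetic change is recorded for any animal. All 3 comparisons with cyclic glands share the same 4 control cows. The age of the gland rose with the stage, so effects of its age and of pregnancy cannot be told apart, and 4 arrays per group limit the precision of every value below.

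SLC proteins do not burn energy directly. Some let a solute run down its gradient, and others exchange it for another solute or carry it along with sodium or protons. A gland that makes steroid hormone at a high rate draws on glucose, amino acids and fatty acids from the blood, and a large family of SLC proteins, the SLC25 carriers, passes the products of their breakdown across the inner mitochondrial membrane, where steroid synthesis begins. Substrate classes were assigned by family number, so some members sit in the class of their relatives and not of their own substrate or membrane. For example, SLC5A6, a vitamin transporter, is grouped with the sugar carriers, and SLC6A4, the serotonin transporter, with the amino acid carriers.

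Every value is log2 of the background-subtracted spot signal minus the 75th percentile of that signal on the same array, so that 0 is the level of the spot at that percentile and a difference of 1 is a 2-fold difference in signal. Each gene was read by a 60-base probe, and probes differ in how well they bind, so values are compared between cows for a gene and not between genes. The probe of SLC26A10, the SLC gene with the smallest p in the comparison of the 4 groups, is shown because it is the only SLC gene called at all 3 stages of pregnancy. It has a GC content of 55.0% and, read as the array file gives it, no stop codon in any of 3 reading frames.

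SLC26A10: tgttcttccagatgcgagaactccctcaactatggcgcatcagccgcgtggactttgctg

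No 2 probes of different SLC genes share a run of 15 or more bases. The probes of SLC25A21 and SLC25A22, which also enter the results, have a stop codon in all 3 frames and GC contents of 43.3% and 28.3%.

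The 75th percentile of the signal lay between 2020 and 4288 per array. Of the non-control spots, 71.9% to 79.6% were well above background. All 7 luteal cell markers sought were on the array and were detected. On days 150-160 PTGFR was higher than in cyclic glands (0.85, adjusted p = 0.0221 in limma), and the others were not called. Some markers of other cells also differed between groups. The summed linear level of 3 macrophage markers, relative to the 75th percentile, was 1.44 to 3.02 in cyclic glands and 0.638 to 1.41 on days 150-160. The sum of 5 fibroblast markers was 47.1 to 73.4 against 31.2 to 43.6. Of these, the collagen genes COL1A1, COL1A2 and COL3A1 were called lower (-1.63, -2.72 and -1.13, adjusted p = 0.0472 or lower in limma). DCN and LUM were not called (-0.24 and -0.50, adjusted p = 0.665 and 0.156). The sum of 8 endothelial markers was 11.9 to 19.5 in cyclic glands and 20.8 to 26.8 on days 20-25. It overlapped with the cyclic range on days 40-45, where the lowest gland read 17.7. On days 150-160 the lowest gland also lay under the highest cyclic one, and the highest read 34.3. None of the 8 was called by itself on days 20-25 (adjusted p = 0.133 or higher in limma). VWF differed by -0.59 there, and the others were above 0. On days 150-160 ENG (1.13, adjusted p = 0.0147 in limma) and TEK (0.85, adjusted p = 0.035) were called higher. The other endothelial markers were not called at that stage (adjusted p = 0.0948 or higher), and VWF differed by -0.51. Of 5 granulocyte markers on the array, CATHL1, CATHL3 and CATHL4 were lower than in cyclic glands at every stage, CATHL4 by -3.37, -3.80 and -3.41 (adjusted p = 0.00031 or lower in limma), while CATHL2 and S100A8 were not called. No array of a pregnant cow had CATHL1, CATHL3 or CATHL4 well above background, so their differences set no fold. The part of these cells in the differences between SLC genes was not tested, and in whole tissue fewer cells of a type and less RNA per cell cannot be told apart. Each of 2 slides carried 2 arrays of every group. Within a slide each group kept its own positions, and effects of position and of group cannot be told apart.

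At most 5 of 77 SLC genes were called in any comparison, and a gene that was not called may still differ. A gene was called at an adjusted p under 0.05 in limma, with Benjamini-Hochberg adjustment over all probes tested. On days 20-25, 1 of 77 SLC genes was called against cyclic glands (1.3%), beside 0.293% of all tested probes. This was SLC26A10, which was higher, beside 0.218% of all tested probes called higher and 0.0754% called lower. On days 40-45, 2 of 77 were called (2.6%), SLC26A10 higher and SLC25A20 lower, beside 1.23% of all tested probes (0.536% higher and 0.695% lower). On days 150-160, 5 of 77 were called (6.49%), 2 higher (SLC26A10 and SLC25A21) and 3 lower (SLC7A7 and SLC25A22 among them), beside 7.98% of all tested probes (4.66% higher and 3.32% lower). At an unadjusted p under 0.05 there were 10, 11 and 21 SLC genes in order of stage in limma, beside 14.1%, 14.7% and 23.5% of all tested probes. In the F test over the 4 groups, 5 of 77 were called, beside 3.85% of all tested probes. These were SLC26A10, SLC25A21, SLC7A7, SLC25A20 and SLC25A22, with adjusted p-values in limma from 0.0017 to 0.0265.

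**Figure D1:**
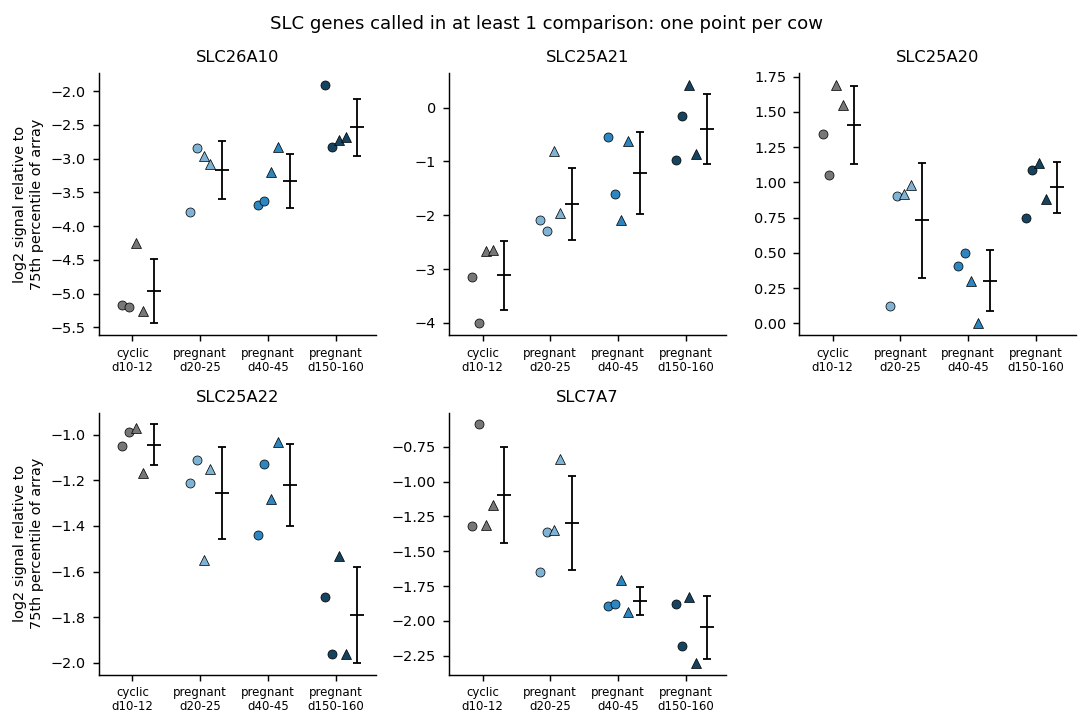
Values of 5 of the 6 SLC genes called in at least 1 comparison; each point is a cow, circles are slide 1 and triangles slide 2, the bar is the mean with 1 SD (n = 4), and the y axis is log2 signal relative to the 75th percentile of the array. SLC26A10 lies between -5.25 and -4.25 in cyclic glands and between -3.79 and -1.91 in all pregnant ones.

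The medians moved little. The median log2 difference from cyclic glands over the 77 SLC genes was 0.03 on days 20-25, -0.08 on days 40-45 and 0.06 on days 150-160, beside 0.05, 0.01 and 0.03 over all tested probes. Groups did not overlap for 5 SLC genes on days 20-25 (6.49%, beside 7.45% of all tested probes), for 6 on days 40-45 (7.79%, beside 9.7%) and for 4 on days 150-160 (5.19%, beside 11.7%). The SLC genes spread more widely within a group than the average probe: the median within-group SD was 0.396 in cyclic glands against 0.302 over all tested probes, 0.316 against 0.248 on days 20-25, 0.251 against 0.207 on days 40-45 and 0.367 against 0.305 on days 150-160. No test was made of that difference.

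**Figure D2:**
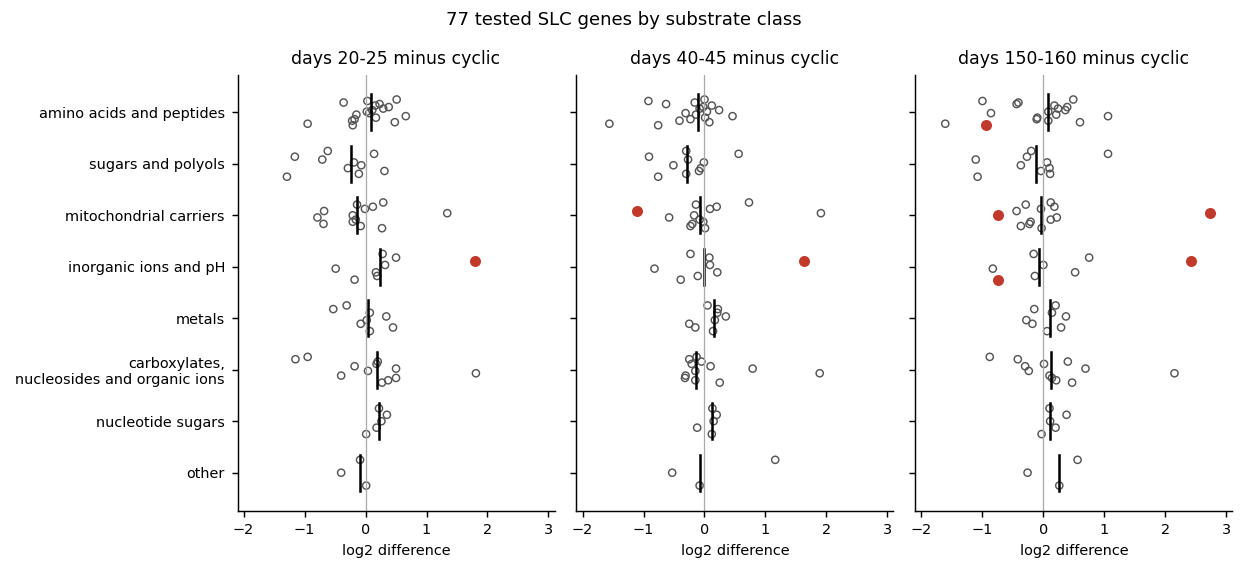
Log2 difference from cyclic glands (x axis) of the 77 tested SLC genes by substrate class for each stage of pregnancy; circles are genes, filled red circles are genes called at an adjusted p under 0.05, and vertical bars are class medians. The called genes are 1, 2 and 5 in number from left to right, and most other points lie near 0.

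Among the 8 tested carriers of inorganic ions and protons, SLC26A10 rose at every stage of pregnancy. It belongs to the SLC26 family of anion exchangers, whose better known members carry sulfate, chloride, bicarbonate or iodide. Its values in the 4 cyclic glands were -5.16, -5.19, -4.25 and -5.25. On days 20-25 they were -3.79, -2.84, -2.96 and -3.08. On days 40-45 they were -3.68, -3.63, -3.20 and -2.83, and on days 150-160 they were -1.91, -2.83, -2.73 and -2.68. Every pregnant gland was above every cyclic gland, cyclic cow 3 being the highest of its group, and the lowest gland of days 150-160 was level, to 2 decimals, with the highest of days 40-45. The group means were -4.96 ± 0.48 (SD, n = 4), -3.17 ± 0.43, -3.34 ± 0.40 and -2.54 ± 0.42.

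SLC26A10 was thus 3.47-fold higher on days 20-25 than in cyclic glands (log2 difference 1.79, SE 0.29, adjusted p = 0.0292 in limma). It was 3.09-fold higher on days 40-45 (1.63, SE 0.29, adjusted p = 0.0141). On days 150-160 it was 5.37-fold higher (2.42, SE 0.29, adjusted p = 0.000271). The difference was of similar size on both slides, at 1.86 and 1.73 on days 20-25, 1.52 and 1.73 on days 40-45, and 2.81 and 2.04 on days 150-160. The later comparisons held without any 1 of the 16 arrays. The call on days 20-25 did not: its adjusted p was 0.0595 without cyclic cow 2, 0.0698 without cyclic cow 4, and 0.0797, 0.0829 and 0.0602 without cow 2, cow 3 or cow 4 of days 20-25. Between stages of pregnancy SLC26A10 was not called. The difference of days 150-160 from days 40-45 was 0.80 (SE 0.29, adjusted p = 0.37), and that from days 20-25 was 0.63 (SE 0.29, adjusted p = 0.35).

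Of the other carriers of this class, those described here were not called. SLC26A2, the sulfate transporter needed for cartilage proteoglycans, differed from cyclic glands by -0.49, -0.82 and -0.83 in order of stage, with an adjusted p of 0.113 on days 150-160. SLC26A11, another SLC26 anion transporter, differed by 0.32, 0.09 and 0.00 (adjusted p = 0.659 or higher). The sodium/potassium/chloride cotransporter SLC12A2 differed by -0.16 on days 150-160 (adjusted p = 0.724), and a brighter SLC12A2 spot named through other fields gave 0.16 (adjusted p = 0.659), so its direction is not settled. The anion exchanger SLC4A2 differed by -0.14 (adjusted p = 0.749). SLC24A1, a sodium/calcium-potassium exchanger, differed by 0.75 (adjusted p = 0.0802), and without cyclic cow 2 it passed (adjusted p = 0.041).

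All 13 SLC25 carriers of the set, classed by family number as mitochondrial, were tested, and further SLC25 spots lie outside its naming rule. On days 20-25, 0 of 13 were called in limma, beside 0.293% of all tested probes. There, 2 had an unadjusted p under 0.05 (15.4%, beside 14.1%). On days 40-45, 1 was called (7.69%, beside 1.23% of all tested probes), and on days 150-160, 2 were called (15.4%, beside 7.98%). SLC25A21, which carries the oxodicarboxylates formed in lysine and tryptophan breakdown, had values of -3.15, -4.01, -2.67 and -2.65 in cyclic glands. They were -2.08, -2.30, -0.80 and -1.96 on days 20-25, -0.54, -1.60, -2.09 and -0.61 on days 40-45, and -0.98, -0.15, 0.42 and -0.86 on days 150-160. Every pregnant gland was above every cyclic one, while the stages of pregnancy overlapped. The rise was called on days 150-160 (6.62-fold, log2 difference 2.73, SE 0.44, adjusted p = 0.00247 in limma), where it was 3.02 on slide 1 and 2.44 on slide 2 and held without any 1 of the 16 arrays. On days 20-25 the difference was 1.34 (SE 0.44, adjusted p = 0.204).

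On days 40-45 the difference of SLC25A21 was 1.91 (SE 0.44) with an adjusted p of 0.0508 in limma, just outside the threshold. It passed with slide as a block (0.0415), with only probes well above background on all 4 arrays of a group (0.0482), under median scaling (0.05 as rounded) and without cyclic cow 3 (0.0463), cow 3 of days 20-25 (0.0423), cow 3 of days 40-45 (0.0423) or cow 1 of days 150-160 (0.0487). It stayed outside the threshold in most of the 29 alternatives, among them quantile normalization, normexp background correction, the deposited table and the replicate block. Of the 16 fits that left out 1 array it passed in those 4, and the adjusted p in the others went up to 0.151. Leaving out cyclic cow 3 brought the number of SLC genes called on days 40-45 from 2 to 4, with SLC16A7 (adjusted p = 0.0255) as the other addition.

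SLC25A20, the carnitine/acylcarnitine carrier that brings fatty acids into mitochondria for oxidation, was lowest on days 40-45. It read 1.34, 1.05, 1.69 and 1.55 in cyclic glands and 0.12, 0.90, 0.92 and 0.98 on days 20-25. It read 0.41, 0.50, 0.30 and 0.00 on days 40-45 and 0.75, 1.09, 1.14 and 0.88 on days 150-160. Both early stages lay wholly below the cyclic glands, and days 150-160 overlapped with them. The fall was called on days 40-45 (2.16-fold lower, log2 difference -1.11, SE 0.20, adjusted p = 0.0147 in limma), with -0.75 on slide 1 and -1.47 on slide 2, and held without any 1 array. It was not called on days 20-25 (-0.68, SE 0.20, adjusted p = 0.146) or days 150-160 (-0.44, SE 0.20, adjusted p = 0.193). From days 40-45 to days 150-160 its difference was 0.66 (SE 0.20, adjusted p = 0.279), with no overlap between those groups.

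SLC25A22, a mitochondrial glutamate carrier, differed on days 150-160. Its cyclic values were -1.05, -0.99, -0.97 and -1.17, and those of days 150-160 were -1.71, -1.96, -1.53 and -1.96. These groups did not overlap, while the 8 glands of the earlier stages lay between -1.55 and -1.03 and overlapped with the cyclic ones. It was 1.67-fold lower on days 150-160 (log2 difference -0.74, SE 0.14, adjusted p = 0.00581 in limma), with -0.81 and -0.67 on the 2 slides, and the call held without any 1 array. The differences on days 20-25 and 40-45 were -0.21 and -0.17 (adjusted p = 0.503 and 0.645). Direct comparison of days 150-160 with days 40-45 gave -0.57 (SE 0.14, adjusted p = 0.169).

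The other 10 SLC25 carriers were not called, and the class median was -0.14, -0.08 and -0.04 on the 3 stages. They include the adenine nucleotide translocators, which exchange ADP for ATP. SLC25A6 differed from cyclic glands by 0.27, 0.01 and -0.03 (adjusted p = 0.504 or higher), the mean of days 40-45 resting on 3 arrays since 1 spot carried an outlier flag. SLC25A5 differed by -0.37 on days 150-160 (adjusted p = 0.228). The phosphate carrier SLC25A3 differed by -0.21 (adjusted p = 0.46) and the citrate carrier SLC25A1, which supplies carbon for fatty acid and sterol synthesis, by 0.12 (adjusted p = 0.883).

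Of 18 tested carriers of amino acids and peptides, 1 was called in a comparison, on days 150-160 (5.56%, beside 7.98% of all tested probes). At an unadjusted p under 0.05 in limma there were 1, 3 and 7 in order of stage. These are 5.56%, 16.7% and 38.9%, beside 14.1%, 14.7% and 23.5% of all tested probes. The class median was 0.08, -0.11 and 0.08. SLC7A7, the y+LAT1 light chain that exchanges cationic for neutral amino acids, read -1.32, -0.59, -1.31 and -1.17 in cyclic glands and -1.65, -1.36, -1.35 and -0.84 on days 20-25. It read -1.89, -1.88, -1.71 and -1.94 on days 40-45 and -1.88, -2.18, -1.83 and -2.30 on days 150-160. Glands of the later stages were all below those of cyclic cows and of days 20-25. It was 1.94-fold lower on days 150-160 (log2 difference -0.95, SE 0.19, adjusted p = 0.00876 in limma), with -1.08 and -0.83 on the 2 slides, and held without any 1 array. On days 40-45 the difference was -0.76 (SE 0.19, adjusted p = 0.0728, and 0.0402 without cow 4 of days 20-25), and on days 20-25 it was -0.21 (SE 0.19, adjusted p = 0.639).

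Macrophages are known to express SLC7A7, and 3 of 5 macrophage markers sought were on the array, all detected. Their summed level was 0.76 to 1.06 on days 40-45. CD68 differed from cyclic glands by -1.32 on days 40-45 (adjusted p = 0.0223) and -1.57 on days 150-160 (adjusted p = 0.00277), MRC1 by -0.87 (adjusted p = 0.104) and -1.03 (adjusted p = 0.0217), and AIF1 by -1.04 (adjusted p = 0.191) and -0.75 (adjusted p = 0.245), all in limma. SLC11A1, the metal transporter of macrophage phagosomes, differed by 0.05 (adjusted p = 0.986) and 0.20 (adjusted p = 0.862). The part of macrophages in the SLC7A7 difference was not tested.

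SLC3A2, the heavy chain that SLC7A7 and SLC7A5 need to reach the cell surface, differed from cyclic glands by 0.02, 0.04 and 0.08 in order of stage (adjusted p = 0.897 or higher). SLC7A5, the LAT1 light chain that brings in large neutral amino acids such as leucine, varied widely between cows. Its values were 0.94, 3.53, 2.68 and 2.64 in cyclic glands, and 0.98, 0.53, 0.41 and 1.44 on days 150-160. Cyclic cow 1 lay among the glands of days 150-160 and the other 3 above them. The difference of -1.61 (SE 0.63) had an adjusted p of 0.132. SLC43A3, a purine nucleobase transporter, differed by -0.86 on days 150-160 (SE 0.29, adjusted p = 0.084) and passed with slide as a block (adjusted p = 0.0256). It was well above background on 1 of 4 arrays of that stage.

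Neither of the following carriers of this class was called. SLC6A9, the glycine transporter GlyT1, differed from cyclic glands by -0.22, -0.41 and 0.08 (adjusted p = 0.391 or higher). The serotonin transporter SLC6A4 was well above background on 2 of the 4 cyclic arrays and on 3 arrays of each other group. Its log2 difference was 0.66 on days 20-25 (adjusted p = 0.372). There the highest cyclic gland read -6.56 and the lowest gland of days 20-25, cow 4, read -6.55. On the array of cow 4 the lowest value well above background was -6.24, so that narrow separation rests on a value under detection. On days 150-160 the difference was 1.06 (adjusted p = 0.0609). It passed under median scaling (adjusted p = 0.0486) and without cow 4 of days 150-160 (adjusted p = 0.0288).

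None of the 10 tested sugar and polyol carriers was called in limma in any of the 6 comparisons. At an unadjusted p under 0.05 there were 3 on days 20-25, 0 on days 40-45 and 3 on days 150-160. These are 30.0%, 0% and 30.0%, beside 14.1%, 14.7% and 23.5% of all tested probes. The class median was -0.24, -0.29 and -0.12, with 8, 9 and 6 of 10 members below 0, and under normexp background correction the last of these medians was 0.05. SLC2A1, the GLUT1 glucose transporter of most tissues, read 1.17, 2.76, 1.73 and 1.83 in cyclic glands and 1.04, 1.06, 1.53 and 1.37 on days 20-25. Cyclic cow 2 stood highest, and the difference of -0.62 (SE 0.27) had an adjusted p of 0.311. SLC2A8, an intracellular hexose transporter, differed by -0.19, -0.01 and 0.06 (adjusted p = 0.621 or higher).

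SLC2A4, the insulin-responsive glucose transporter GLUT4, read -4.01, -2.92, -3.76 and -3.62 in cyclic glands and -1.55, -2.37, -2.67 and -3.49 on days 150-160. Cow 1 and cow 4 of days 150-160 differed by more than the group means did. The difference was 1.06 (SE 0.36, adjusted p = 0.0908). Without cow 4 of days 150-160 it passed the threshold (adjusted p = 0.0285). SLC5A6, the sodium-dependent multivitamin transporter, read -1.88, -4.73, -3.52 and -3.77 in cyclic glands and between -5.40 and -4.11 on days 20-25. Its difference on days 150-160 was -1.08 (adjusted p = 0.171), and without cyclic cow 1 it was -0.55 (adjusted p = 0.395).

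**Figure D3:**
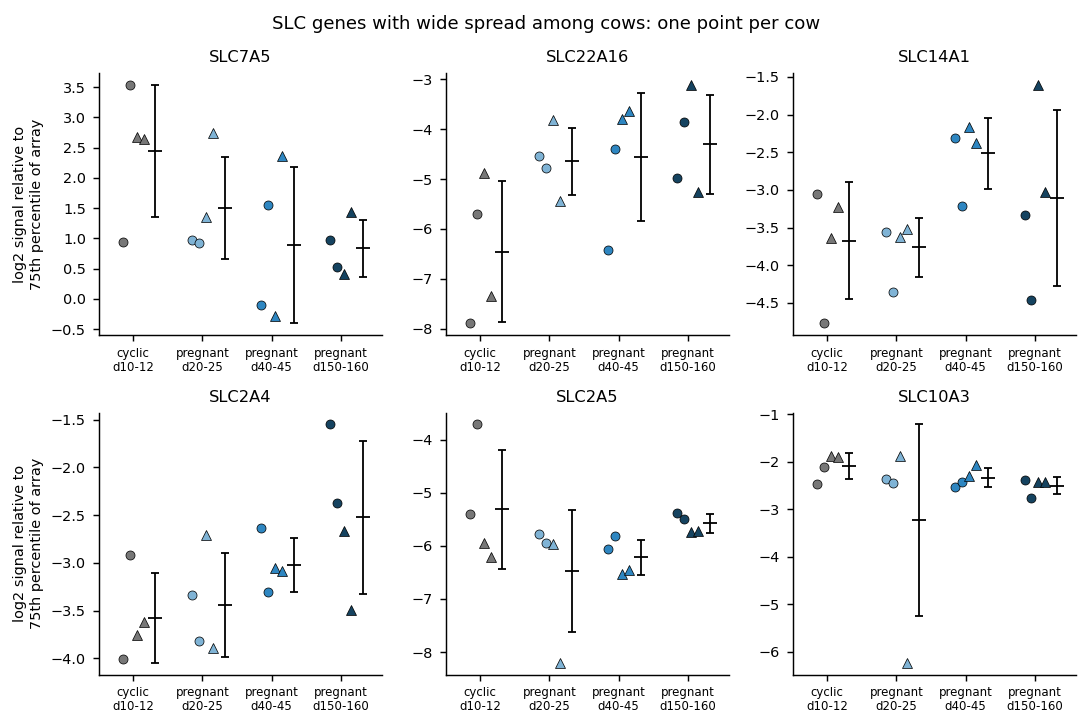
Values of 6 SLC genes that vary widely among cows and were called in no comparison; points are cows, circles slide 1 and triangles slide 2, bars mean and SD (n = 4), y axis log2 signal relative to the 75th percentile of the array. Cow 4 of days 20-25 lies apart for SLC2A5 at -8.20 and for SLC10A3 at -6.23.

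None of the 12 tested carriers of carboxylates, nucleosides and organic ions was called, and 2 had an unadjusted p under 0.05 in limma at each stage against cyclic glands. That is 16.7% each time, beside 14.1%, 14.7% and 23.5% of all tested probes. SLC22A16, a carnitine and organic cation transporter, had large differences with a wide spread. Its cyclic values were -7.89, -5.71, -4.87 and -7.34, of which 2 of 4 were well above background. The later values were -4.54, -4.77, -3.82 and -5.45 on days 20-25, -6.42, -4.39, -3.79 and -3.64 on days 40-45, and -4.98, -3.86, -3.12 and -5.25 on days 150-160. All stages overlapped with the cyclic glands through cyclic cow 3, and days 40-45 also through cyclic cow 2. The differences were 1.81, 1.89 and 2.15 (SE 0.72 each, adjusted p = 0.282, 0.226 and 0.0835), and the last passed without cyclic cow 3 (2.67, adjusted p = 0.0355).

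SLC16A7, the monocarboxylate transporter MCT2 with a high affinity for pyruvate and lactate, read -1.98, -2.39, -1.12 and -1.55 in cyclic glands and -0.97, -0.91, -0.96 and -1.05 on days 40-45. The glands of days 40-45 were all above the cyclic ones and lay close together, while the other stages overlapped with the cyclic glands. The difference of 0.79 (SE 0.23) had an adjusted p of 0.105. It was 1.24 on slide 1 and 0.33 on slide 2. On days 150-160 the difference was 0.69 (SE 0.23, adjusted p = 0.0775). Without cyclic cow 3 both passed (adjusted p = 0.0255 and 0.0156). The related SLC16A1, MCT1, differed by -0.18, 0.10 and -0.30 (adjusted p = 0.36 or higher). SLC29A1, the equilibrative nucleoside transporter ENT1, differed by 0.27, 0.25 and 0.47 (adjusted p = 0.317 or higher), and SLC22A5, the plasma membrane carnitine transporter OCTN2, by -0.40, -0.31 and 0.10 (adjusted p = 0.358 or higher).

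The 8 tested metal carriers, mostly zinc importers of the SLC39 (ZIP) family, had class medians of 0.04, 0.16 and 0.10 and no call, with 1 gene at an unadjusted p under 0.05 in limma at each stage. That is 12.5% each time, beside 14.1%, 14.7% and 23.5% of all tested probes. SLC39A11 read 0.27, -0.38, 0.05 and 0.03 in cyclic glands, and all 12 pregnant glands lay between 0.19 and 0.53. Cyclic cow 1 was inside that range. The differences were 0.34, 0.35 and 0.37 (SE 0.14 each, adjusted p = 0.295, 0.245 and 0.118). SLC39A1 lay between 2.34 and 2.82 in all 16 glands, and its difference on days 40-45, where groups did not overlap, was 0.21 (adjusted p = 0.489). SLC39A5 differed by 0.45 on days 20-25, also without overlap (adjusted p = 0.358), and by -0.15 on days 40-45 (adjusted p = 0.838). SLC39A7, a zinc transporter of the endoplasmic reticulum, differed by 0.07, 0.14 and 0.06 (adjusted p = 0.822 or higher).

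The 5 members of the SLC35 family were classed as nucleotide sugar carriers, which supply the Golgi apparatus for glycosylation. Their medians were 0.22, 0.13 and 0.11, with no call. At an unadjusted p under 0.05 there were 0, 0 and 1 in limma, the last being 20.0%, beside 14.1%, 14.7% and 23.5% of all tested probes. The UDP-galactose transporter SLC35A2 differed by 0.35, 0.20 and 0.38 (adjusted p = 0.202 or higher) and SLC35C2 by 0.01, 0.12 and -0.03 (adjusted p = 0.822 or higher). The remaining classes had 1 tested gene each. SLC27A1, a fatty acid transport protein, differed by -0.40, -0.53 and -0.26 (adjusted p = 0.422 or higher). SLC9A3R1, the scaffold now named NHERF1 that anchors transporters and is no carrier itself, differed by 0.01, -0.08 and 0.26 (adjusted p = 0.723 or higher).

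SLC14A1, the urea transporter UT-B, read -3.05, -4.77, -3.64 and -3.23 in cyclic glands and -2.31, -3.21, -2.16 and -2.38 on days 40-45. The groups overlapped through cow 2 of days 40-45 and cyclic cow 1. The difference was 1.16 (SE 0.50, adjusted p = 0.288). On days 150-160 the values were -3.33, -4.46, -1.61 and -3.03, and cow 2 and cow 3 of that stage differed more than any pair of group means.

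No SLC gene was called between stages of pregnancy. Of 77, 0 were called in limma from days 20-25 to days 40-45 (beside 0.0335% of all tested probes), from days 40-45 to days 150-160 (0.0419%) and from days 20-25 to days 150-160 (1.57%). In each, 9 had an unadjusted p under 0.05 in limma, beside 8.41%, 9.22% and 13.9% of all tested probes. Groups did not overlap for 7, 6 and 5 SLC genes, beside 8.88%, 6.42% and 8.66%. With slide as a block 1 gene was called between days 20-25 and 150-160, SLC43A3 (-0.92, adjusted p = 0.0469). That comparison also gave 1 call without cyclic cow 2, SLC7A7 (adjusted p = 0.0354), and 1 without cow 3 of days 20-25, SLC25A22 (adjusted p = 0.0462).

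Some arrays stood apart for parts of the set. Cow 4 of days 20-25 lay more than 1 log2 unit below the median of the other 15 arrays for 6 of 77 SLC genes and above it for 3, which is 11.7% of them and beside 11.4% of all tested probes. Over the other arrays this share of SLC genes was 0% to 14.3%, the highest in cyclic cow 1. In cow 4 of days 20-25, SLC10A3 read -6.23 where the other 15 arrays lay between -2.77 and -1.87. SLC11A1 read -3.73, SLC31A2 (a copper transporter family member) -0.46, SLC25A4 -1.72 and SLC2A5, the fructose transporter, -8.20. Each was the lowest of the 16 arrays for its gene. Without that array the differences of days 20-25 from cyclic glands went from -1.15 to -0.15 for SLC10A3, from -0.69 to -0.22 for SLC25A4 and from -1.16 to -0.59 for SLC2A5, and none was called either way.

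**Figure D4:**
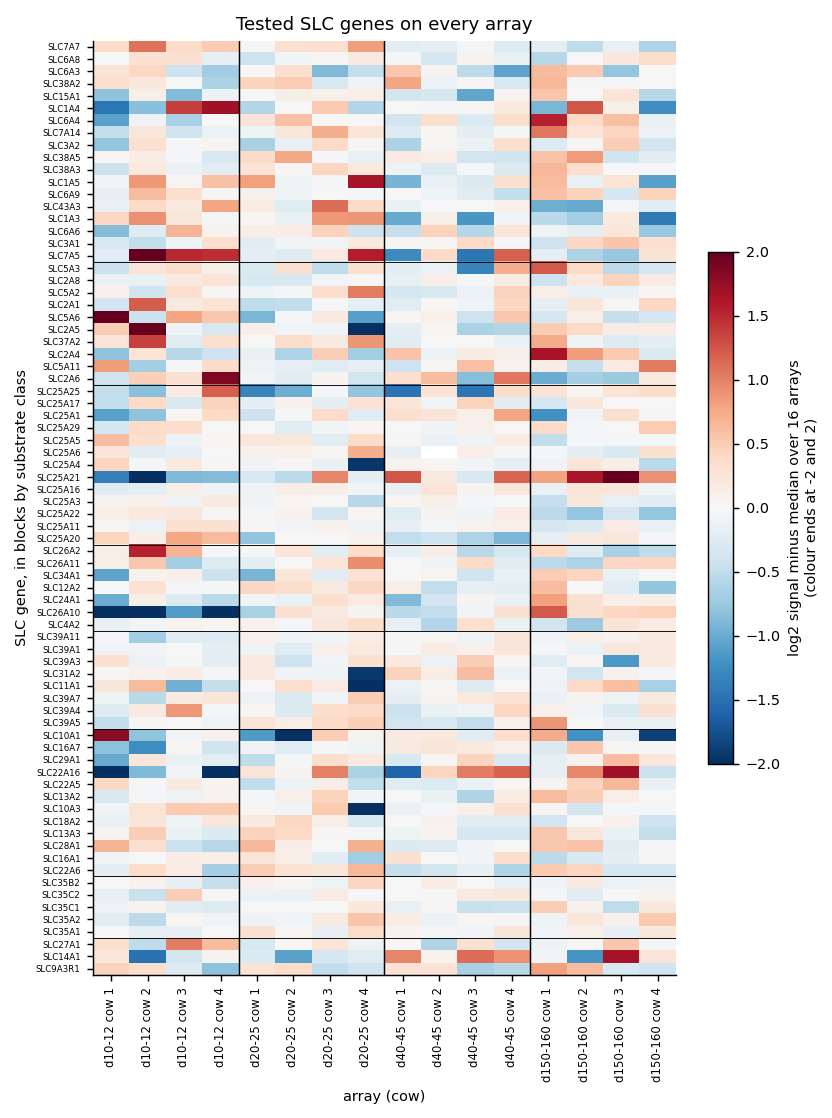
76 of the 77 tested SLC genes (rows, in blocks by substrate class) on each array (columns, 4 cows per group); colour is log2 signal minus the median of the gene over the 16 arrays, ending at -2 and 2, and the 1 white cell of SLC25A6 on days 40-45 is a missing value. SLC26A10 is blue, below its median, in all 4 cyclic cows, and isolated dark cells mark single cows such as cow 4 of days 20-25.

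The 20 genes that were not tested include 15 that were not well above background on any array. Among these were SLC2A2, the glucose transporter of liver and pancreatic islets, SLC2A3, a glucose transporter of neurons, SLC5A1, the intestinal sodium/glucose cotransporter, SLC6A2, the noradrenaline transporter, and SLC4A1, the anion exchanger of red blood cells. At the edge of the filter, SLC10A1, the bile acid transporter of liver, was kept through 3 arrays of days 40-45, and the SLC4A4 and SLC5A7 spots of the set were left out with 2 arrays in their best group. A second SLC4A4 spot, named through other fields, was well above background on all 4 arrays of every group and differed from cyclic glands by -0.52 on days 150-160 (adjusted p = 0.426 in limma). On days 150-160 no array had SLC10A1 well above background, and its values there set no fold.

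Of 137 genes on the array for channels, pumps, ABC transporters, aquaporins, organic anion transporters and partners of SLC proteins, 100 were tested. On days 20-25, 2 were called, both higher: the potassium channel gene KCNT2 (1.56, adjusted p = 0.0297 in limma) and ATP6V1B2, a subunit of the vacuolar proton pump (1.17, adjusted p = 0.0308). That is 2.0%, beside 0.293% of all tested probes. On days 40-45, 0 were called in limma, with 15 of 100 at an unadjusted p under 0.05, beside 14.7% of all tested probes. On days 150-160, 6 were higher and 2 lower (8.0%, beside 7.98% of all tested probes). The prostaglandin transporter SLCO2A1 rose by 1.39 (SE 0.26, adjusted p = 0.00491), and KCNMB1, a regulatory subunit of a calcium-activated potassium channel, by 1.59 (SE 0.36, adjusted p = 0.0162). The aquaglyceroporin AQP7 differed by -1.58 (SE 0.36, adjusted p = 0.0156) and was well above background on 1 of 4 arrays of days 150-160.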

How the data were processed

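Labelled RNA (400 ng of total RNA per sample, Cy3, per the labels' protocols) from 16 cows was hybridised to 1-colour Agilent arrays. The deposited scanner files hold an intensity on a linear scale, background-subtracted by Agilent Feature Extraction 9.5 per the submitters' processing notes. No scaling between arrays is recorded in the file headers. Deposited flags (unit other, 0 or 1) mark spots well above background, saturated or outlying. The deposited value table is on a log2 scale. Its columns matched log2 of the scanner signal minus a constant per array, with a largest departure of 0.00461, higher values meaning more signal, and column medians of -3.18 to -2.98, and it served as an alternative.

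Control spots (536) were left out and 220 values with outlier flags were treated as missing. Each value is log2 signal minus the array's 75th percentile. Probes well above background on at least 3 of 4 arrays of a group were tested (11941, and 11940 where a group had no value). The fit used limma 3.58.1 (lmFit, eBayes; R 4.3.3) on all 16 arrays with group as the only term (12 residual degrees of freedom, prior 2.77), two-sided tests and Benjamini-Hochberg adjustment over all tested probes in each of 6 comparisons and an F test. On data simulated for days 150-160 against cyclic cows with 11941 probes, 28, 40, 49 and 49 of 50 changed probes were recovered at log2 sizes of 1, 2, 3 and 4.

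Each SLC gene was represented by the brightest of the spots that its gene name or description names. SLC12A2 and SLC4A4 each have a brighter spot named through other fields, which lies outside that rule. SLC5A7 has 2 spots with the same sequence and was not tested. RefSeq names (assembly ARS-UCD2.0) matched the array's symbol for 95 of 97 genes. Named genes were SLC26A10, every SLC gene called in a comparison or the F test, the tested gene of each class with the highest mean and that with the smallest F test p, and, per comparison with cyclic cows, the 5 largest rises and 5 largest falls among genes whose groups did not overlap. Of the other transport genes, at most 4 called per comparison were eligible, by smallest adjusted p. A gene that these rules name is not reported here. All other SLC genes named were chosen after their values were seen. The members, classes and lists were chosen with earlier results of these data known, so no list was tested as a set. Each cow is a separate animal, and each p-value sets a difference between groups against the spread between cows within groups. Alternatives covered background correction, scaling, the deposited table, filters, floors, flags, slide, replicate number and leaving out each array.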

Additional observations from a re-analysis of the deposited data

Results flagged for a closer look

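Among the 23 SLC genes named by rule, 91 groups of 4 arrays could be checked for an array far from the other 3, and 7 held one. Chance gives about 1 in 20 groups. An array counted when its gap to the nearest other took more of the range than Dixon's critical value for 4 samples. In cyclic glands SLC26A10 read -4.25 in cow 3, above -5.25 to -5.16 in the others. On days 150-160 SLC26A10 read -1.91 in cow 1, above -2.83 to -2.68, and SLC39A5 read -4.74 in the same cow, above -5.76 to -5.61. SLC6A9 read 1.58 in cow 3 of days 150-160, below 2.35 to 2.50. On days 20-25 SLC25A20 read 0.12 in cow 1, below 0.90 to 0.98, SLC14A1 read -4.35 in cow 2, below -3.62 to -3.52, and SLC25A6 read 6.42 in cow 4, above 5.73 to 5.79. The SLC26A10 differences from cyclic glands were called with and without cyclic cow 3 and with and without cow 1 of days 150-160.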

How the results depend on the processing

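No direction of a called difference reversed under any alternative. Over the differences of named genes, 419 kept their side of the threshold, 35 fell outside it and 9 came inside it. With the arrays of slide 1 alone, 0, 0 and 2 SLC genes were called on days 20-25, 40-45 and 150-160 and 0 in the F test, and with slide 2 alone all 4 counts were 0. A slide holds 2 arrays per group. With slide as a block, 1 gene was called between days 20-25 and 150-160. Adding 46 tested spots named as SLC genes through other fields, an alternative chosen after seeing the data, gave 11 calls on days 150-160, 1 between days 20-25 and 150-160 and 8 in the F test.

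Leaving out 1 array in turn gave 0 to 1 calls on days 20-25, 2 to 4 on days 40-45, 4 to 6 on days 150-160, 0 to 1 between days 20-25 and 150-160 and 3 to 6 in the F test, with 3 without cow 2 or cow 4 of days 150-160. Same-numbered cows are separate animals, which the correlations between arrays cannot test. Of 24 same-numbered pairs 9 had a correlation over 0.1, and 9 of 16 arrays correlated best with an array of their own number. All 24 were positive (0.001 to 0.291). Pairs of other numbers lay between -0.098 and 0.271 on the same slide and went down to -0.327 on different slides. Same-numbered arrays also shared a slide, and what these correlations reflect was not tested. The replicate block gave 1, 2 and 7 calls against cyclic glands, adding SLC22A16 (adjusted p = 0.0224) and SLC43A3 (0.0439) on days 150-160, and 4 in the F test.

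Of the 77 tested genes, 64 were well above background on all 16 arrays. The number of arrays limits the precision of every difference.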

Other observations

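A further 57 spots carry an SLC name only through their accession, gene ID or systematic name and lie outside the rule for the set. Of these 46 were tested, and those named here were chosen after their values were seen. On days 20-25 and days 40-45, 0 were called against cyclic glands in limma, with 3 and 7 at an unadjusted p under 0.05. These are 6.52% and 15.2%, beside 14.1% and 14.7% of all tested probes. On days 150-160, 3 were higher and 3 lower, beside 7.98% of all tested probes. SLC7A11, the cystine/glutamate exchanger, read -3.68, -2.12, -4.09 and -2.92 in cyclic glands and -5.64, -4.62, -5.02 and -6.05 on days 150-160. Every late gland was below every cyclic one, and the difference was -2.13 (SE 0.41, adjusted p = 0.00681 in limma).

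SLC40A1, the iron exporter ferroportin, read -1.72, -1.36, -1.41 and -1.16 in cyclic glands and -2.31, -1.94, -2.18 and -2.30 on days 150-160, without overlap (-0.77, SE 0.15, adjusted p = 0.00654 in limma). It was also lower on days 150-160 than on days 20-25 (-0.81, SE 0.15, adjusted p = 0.0126). Macrophages express it too. Of their markers CD68 and MRC1 were lower in the comparison with cyclic glands (-1.57 and -1.03), and AIF1 was not called (-0.75, adjusted p = 0.245 in limma). The part of macrophages was not tested. Of 3 mitochondrial carriers called on days 150-160, SLC25A39 was lower (-0.91, SE 0.16, adjusted p = 0.00422) and SLC25A40 (1.24, SE 0.29, adjusted p = 0.0183) and SLC25A33 (0.60, SE 0.17, adjusted p = 0.0459) were higher. The last of the 6 is SLC9A3R2, the scaffold now named NHERF2, which was higher by 1.19 (SE 0.29, adjusted p = 0.0217), and the same spot counts among the other transport genes.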
